A study of Homo sapiens with 2 samples.

Results

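Leukotriene and prostaglandin synthesis genes were compared between 2 untreated human diffuse large B cell lymphoma lines, SUDHL6 and HT. The set was given as 8 genes, ALOX5, ALOX5AP, LTA4H, LTC4S, PLA2G4A, PTGS1, PTGS2 and PTGES3. A gene was used where a probe set of the array named that gene alone, and the probe set with the highest mean of both arrays was taken if there were several. This gave 6 of the 8 genes, each with 1 probe set, out of 14232 genes with a value in all. LTC4S shared its probe set with MAML1, and PTGES3 was not analysed here. The values come from exon arrays, which carry probes along the exons of each gene, with 1 array of total RNA for SUDHL6 and 1 for HT. Both lines were kept in serum-supplemented RPMI medium with antibiotics and received no compound, although the series concerns an inhibitor of Polycomb repressive complex 2. Each line comes from a single patient's tumour, so a difference between them cannot be told apart from any other difference between these cultures. A single array per line gives no estimate of culture-to-culture variation. No test or p-value is therefore given, and the number of arrays limits the precision of every value.

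Leukotrienes and prostaglandins are lipid signals made from arachidonic acid, a fatty acid stored in membrane phospholipids. The cytosolic phospholipase encoded by PLA2G4A releases it. In the leukotriene branch, 5-lipoxygenase (ALOX5), helped by the membrane protein FLAP (ALOX5AP), makes leukotriene A4, which LTA4H turns into leukotriene B4 and which LTC4S joins to glutathione to give the cysteinyl leukotrienes. In the prostaglandin branch, the cyclooxygenases PTGS1 and PTGS2 make prostaglandin H2, and terminal synthases then make the individual prostanoids. Myeloid cells are the best known source of leukotrienes, and B cells are also known to hold ALOX5 and ALOX5AP.

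Upstream sequences are shown for 4 of the genes, ALOX5AP and LTA4H, whose values were far above background in both lines, and PLA2G4A and PTGS2, chromosome neighbours whose values were at background in both. Each is the stretch of 250 bases before the annotated start of the gene in RefSeq (GRCh38.p14), written 5′ to 3′ on the gene's strand, with CG dinucleotides in capitals. The sequences were read from chr13:30713235-30713484 (plus strand) for ALOX5AP, chr12:96035588-96035837 (minus strand) for LTA4H, chr1:186828699-186828948 (plus strand) for PLA2G4A and chr1:186680424-186680673 (minus strand) for PTGS2. Windows were matched for 7 of the 8 genes, all but ALOX5.
ALOX5AP: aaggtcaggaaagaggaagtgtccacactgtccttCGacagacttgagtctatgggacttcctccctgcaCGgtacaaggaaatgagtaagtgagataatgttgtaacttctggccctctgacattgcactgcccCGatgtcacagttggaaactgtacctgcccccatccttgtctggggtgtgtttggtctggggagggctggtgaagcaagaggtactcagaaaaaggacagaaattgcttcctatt
LTA4H: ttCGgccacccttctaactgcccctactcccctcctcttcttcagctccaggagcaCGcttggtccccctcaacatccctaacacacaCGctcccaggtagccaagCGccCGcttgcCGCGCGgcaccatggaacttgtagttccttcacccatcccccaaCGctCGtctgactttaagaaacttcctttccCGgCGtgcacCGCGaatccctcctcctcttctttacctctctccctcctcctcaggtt
PLA2G4A: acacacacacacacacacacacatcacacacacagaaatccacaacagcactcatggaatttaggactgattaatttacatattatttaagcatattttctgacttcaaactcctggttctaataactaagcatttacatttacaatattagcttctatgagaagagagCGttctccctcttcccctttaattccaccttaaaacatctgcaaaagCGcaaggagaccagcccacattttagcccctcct
PTGS2: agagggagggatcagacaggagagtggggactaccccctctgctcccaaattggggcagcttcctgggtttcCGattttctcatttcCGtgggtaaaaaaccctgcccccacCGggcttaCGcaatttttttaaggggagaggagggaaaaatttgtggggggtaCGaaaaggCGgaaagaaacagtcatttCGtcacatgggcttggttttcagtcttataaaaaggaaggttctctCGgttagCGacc

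The CG dinucleotide, which reads the same on both strands, occurred 3 times upstream of ALOX5AP, 14 times upstream of LTA4H, 2 times upstream of PLA2G4A and 9 times upstream of PTGS2. The median over all 35116 windows of this length was 11. The windows of the bright genes lay on opposite sides of this median, and those of PLA2G4A and PTGS2 lay below it. PTGS1, also dim, had 2 windows, not shown, with 4 and 7 CG dinucleotides. The motif TATAAA, searched on both strands, was found upstream of PTGS2, 32 bases before the start, and was not in the other 3 windows. It was present in 10.7% of all windows. The motif GGGCGG, also searched on both strands, was in none of these 4 windows and in 42.6% of all windows. No match says only that these letters are not in the stretch shown. Among the windows not shown, those of PTGS1, LTC4S and PTGES3 held GGGCGG, and 1 of PTGS1 held TATAAA on the opposite strand.

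Values are log2 expression values, so a difference of 1 is a 2-fold change. Background was set from 225 olfactory receptor genes, a family that lymphoma cells mostly do not use. The 95th percentile of these genes, called the dim level, was 3.81 for SUDHL6 and 4.11 for HT. Genes counted as different had a gap of at least 1 between the lines, with the brighter line at or over its own dim level. If the dimmer line fell under its level, the fold was taken against that level and reads "at least". The differences of the olfactory receptor genes, SUDHL6 minus HT, spanned -1.03 to 1.26 in their central 95%, which is the nearest available measure of noise for dim genes.

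**Figure D1:**
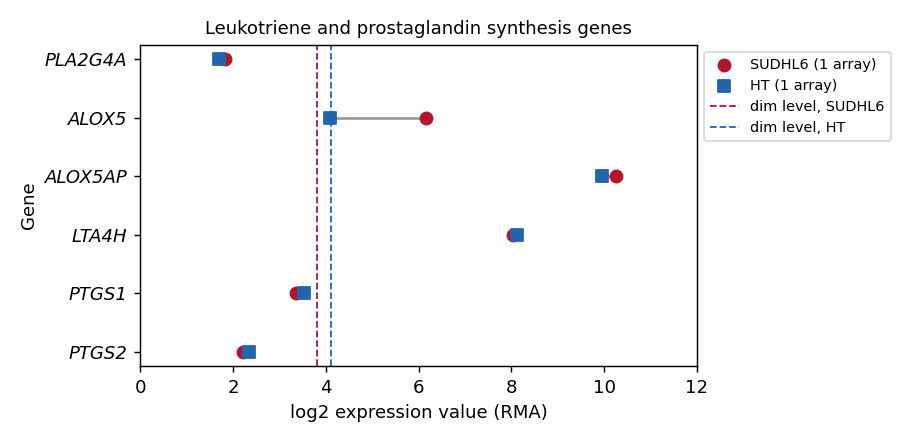
Log2 expression values (horizontal axis) of the 6 synthesis genes with a value of their own (vertical axis), with 1 point for the SUDHL6 array and 1 for the HT array, and dashed lines at the dim level of each line. ALOX5 stood at 6.17 in SUDHL6 against 4.10 in HT, while the points of the other 5 genes lie close together.

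ALOX5 was the 1 gene of the 6 that differed, and it was higher in SUDHL6. ALOX5AP and LTA4H lay well above the dim level in both lines with differences under 1, and PLA2G4A, PTGS1 and PTGS2 lay below it in both. Over all genes with a value, 8.12% were counted as different, 3.50% higher in SUDHL6 and 4.62% higher in HT. Among the 9405 genes bright enough to be counted, the share was 12.3%. The genes were selected on this pathway with the log2 values of these same arrays known, the difference between SUDHL6 and HT included, so their count is a description. Their median difference was 0.02, beside -0.04 over all 14232 genes.

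ALOX5, the enzyme that commits arachidonic acid to leukotrienes, had a log2 value of 6.17 in SUDHL6 against 4.10 in HT. The SUDHL6 value was well above the dim level, and the HT value sat at it, 4.10 against a level of 4.11. The difference was 2.07, and SUDHL6 exceeded HT by at least 4.15-fold. Of all 14232 genes, 306 had a larger difference in either direction. With 2 arrays the pattern of a gene is a single difference, and the 3 genes nearest to ALOX5 in that difference were AHR (2.06), ARHGAP15 (2.05) and SLC18B1 (2.09). No further likeness can be read from 2 arrays.

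ALOX5AP, the FLAP protein that presents arachidonic acid to ALOX5, stood at 10.26 in SUDHL6 against 9.96 in HT. The difference was 0.30, which is 1.23-fold and under the threshold. Thus the transcript of the partner protein was far above the dim level in SUDHL6 and in HT, while that of the enzyme was so in SUDHL6 and not in HT.

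LTA4H, the hydrolase that makes leukotriene B4 and also acts as an aminopeptidase, had values of 8.03 in SUDHL6 against 8.12 in HT. The difference of -0.09 was among the smaller ones, with 11440 genes differing by more in either direction. Its sign turned to 0.03 after a loess correction, so no line can be called higher.

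LTC4S, the synthase of leukotriene C4, had no value of its own. The probe set that it shares with MAML1, a coactivator of Notch signalling, read 3.61 in SUDHL6 against 3.37 in HT, below the dim level in both. MAML1 also had a probe set of its own, at 5.68 in SUDHL6 against 5.72 in HT. The levels of different probe sets are not comparable, and the shared value cannot be assigned to either gene.

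The gene for the enzyme that releases arachidonic acid and both cyclooxygenase genes read at background. PLA2G4A, the calcium-dependent cytosolic phospholipase, was at 1.83 in SUDHL6 against 1.70 in HT. PTGS1, the constitutive cyclooxygenase, was at 3.35 in SUDHL6 against 3.53 in HT. PTGS2, the inducible cyclooxygenase, was at 2.22 in SUDHL6 against 2.33 in HT. Their differences of 0.13, -0.18 and -0.11 lay inside the range of the olfactory receptor genes. Such dim values do not prove silence, and small differences between dim genes are compressed by the normalization.

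**Figure D2:**
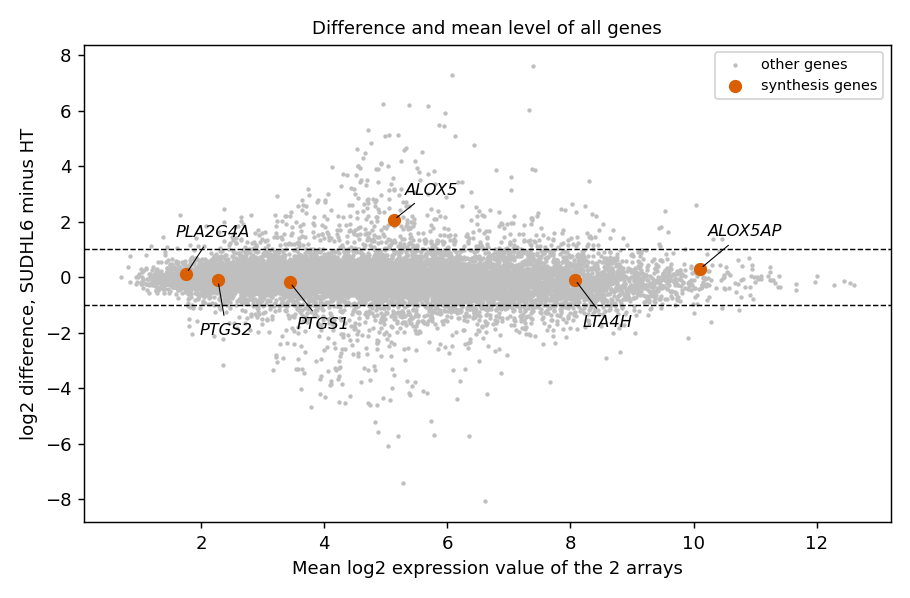
The log2 difference, SUDHL6 minus HT (vertical axis), against the mean log2 value of both arrays (horizontal axis) for all 14232 genes in grey, with the 6 synthesis genes in orange and dashed lines at a difference of 1 either way. ALOX5, at 2.07, lies outside the lines, and the other 5 lie between them, from -0.18 for PTGS1 to 0.30 for ALOX5AP.

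The neighbours of ALOX5 on chromosome 10 also differed, in both directions. OR13A1, an olfactory receptor gene next to ALOX5 in RefSeq with no annotated gene between, stood at 6.84 in SUDHL6 against 2.23 in HT, at least 6.60-fold higher in SUDHL6. OR13A1 was itself 1 of the 225 genes behind the dim level. On the other side, MARCHF8, a membrane-bound ubiquitin ligase gene, was at 4.69 in SUDHL6 against 6.32 in HT, so it was 3.10-fold higher in HT. Among the 10 nearest genes with a value, 4 were counted as different, beside 8.12% of all genes. The same count was 2 for PLA2G4A, 1 each for ALOX5AP, PTGS1 and PTGS2, and 0 each for LTA4H, LTC4S and PTGES3. Single neighbour differences reached 2.56 near PLA2G4A and PTGS2 and -2.05 near ALOX5AP. PLA2G4A and PTGS2 are each other's nearest gene with a value, so their neighbours overlap and the 2.56 is the same one. Of the 4 near ALOX5, the other pair was ZFAND4, at 8.06 in SUDHL6 against 6.75 in HT, and ZNF239, at 3.56 in SUDHL6 against 5.32 in HT. These 4 split evenly, 2 higher in each line, and the median of the 10 was -0.10. Whether probes of ALOX5 and OR13A1 overlap any common transcript was not tested.

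**Figure D3:**
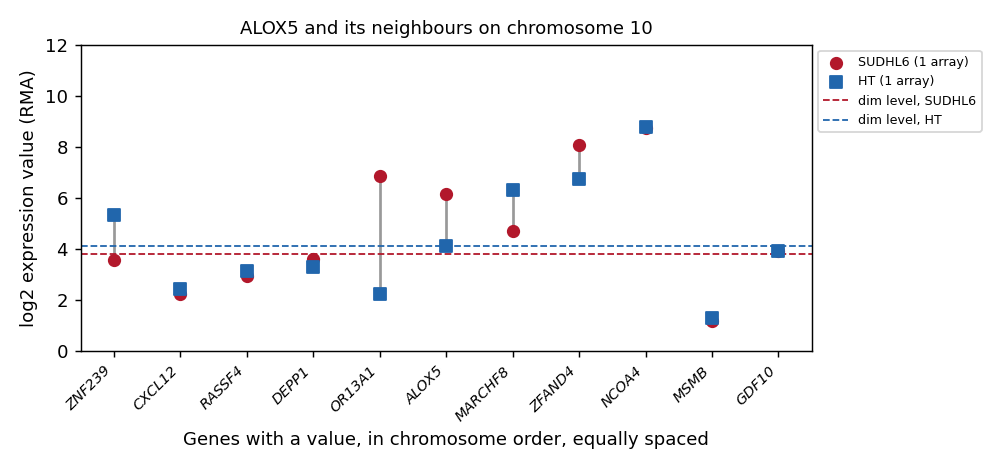
Log2 expression values (vertical axis) of ALOX5 and the 5 nearest genes with a value on each side, equally spaced in chromosome order (horizontal axis), with 1 point per array and dashed lines at the dim levels. OR13A1 (6.84 in SUDHL6, 2.23 in HT) and ALOX5 are higher in SUDHL6, while MARCHF8 (4.69 in SUDHL6, 6.32 in HT) is higher in HT.

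PLA2G4A and PTGS2 lie beside each other on chromosome 1, with 1 annotated gene between them. For each gene the nearest gene with a value on either side was read, which can leave annotated genes between, up to 20 between PLA2G4A and BRINP3. PDC, on the far side of PTGS2, was also dim, at 1.55 in SUDHL6 against 1.68 in HT, and so was BRINP3, beyond PLA2G4A, at 2.16 in SUDHL6 against 2.78 in HT. The bright genes had mixed surroundings. USPL1, before ALOX5AP, stood at 7.06 in SUDHL6 against 7.71 in HT, whereas MEDAG, after it, was dim at 3.11 in SUDHL6 against 3.02 in HT. HAL and ELK3 are the nearest genes with a value around LTA4H, with HAL below the dim level in both lines and ELK3 at 3.39 in SUDHL6 against 4.23 in HT. Around PTGS1 these were MRRF, a mitochondrial translation factor gene at 7.10 in SUDHL6 against 7.34 in HT, and the olfactory receptor gene OR1J1, at 2.35 in SUDHL6 against 2.28 in HT. These nearest genes differed by less than 1, although others within the 10 nearest differed by more, as given above.

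The rest of the pathway was read from 10 further gene lists, which held 101 genes with a value of their own out of 127 listed. Of the 101, 63 reached the dim level, 2 were counted as higher in SUDHL6 and 7 as higher in HT. The share of all genes was 3.50% for SUDHL6 and 4.62% for HT. These shares are the comparison for each single list below as well. The median difference of the 101 genes was -0.08, beside -0.04 over all genes. The 9 that differed came from 7 of the lists.

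**Figure D4:**
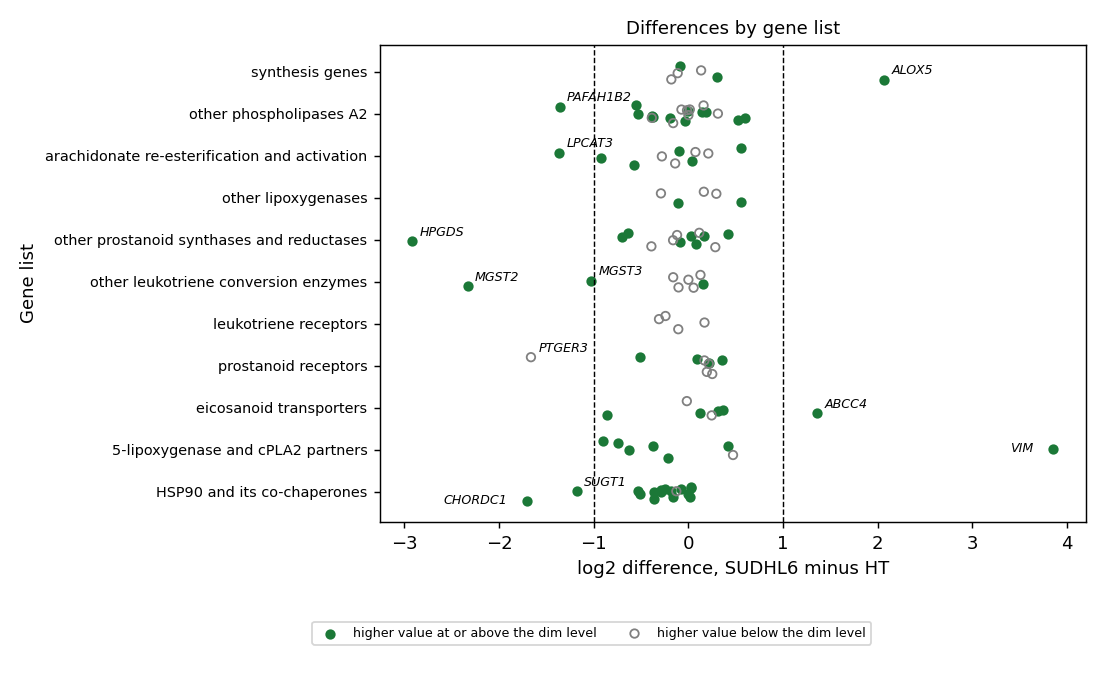
The log2 difference, SUDHL6 minus HT (horizontal axis), of each gene in the synthesis set and the 10 further lists (vertical axis; points are spread vertically within a list for legibility), filled where the higher value reached the dim level and open where it did not. MGST2 (-2.33) and HPGDS (-2.92) lie furthest to the HT side, and VIM (3.86) and ALOX5 (2.07) furthest to the SUDHL6 side.

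The glutathione transferases MGST2 and MGST3 were higher in HT. MGST2, a microsomal glutathione transferase that can make leukotriene C4 outside myeloid cells, stood at 4.54 in SUDHL6 against 6.87 in HT, 5.04-fold higher in HT. MGST3, a related transferase, was at 7.50 in SUDHL6 against 8.53 in HT, 2.04-fold higher in HT, but its difference of -1.03 shrank to -0.93 after quantile normalization and -0.91 after loess, under the threshold. The list of other leukotriene conversion enzymes had 8 genes with a value, 3 of them above the dim level. Of these, 2 were higher in HT and 0 higher in SUDHL6, beside 4.62% and 3.50% of all genes. The list median was -0.05, and a list this short is not read as a result about these enzymes. GGT5, which trims the glutathione of leukotriene C4, was chosen after its values were seen and stood at 4.99 in SUDHL6 against 4.83 in HT.

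ALOX5AP, LTC4S, MGST1, MGST2, MGST3 and PTGES belong to 1 family of small membrane proteins, known as MAPEG, a grouping used here after the values were seen. Its members with a value did not move together. ALOX5AP differed by 0.30, while MGST2 and MGST3 were higher in HT. PTGES, the inducible prostaglandin E synthase, was at 4.04 in SUDHL6 against 4.75 in HT, a difference of -0.70 that stayed under the threshold. MGST1 lay below the dim level, at 1.70 in SUDHL6 against 1.58 in HT.

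Among the other prostanoid synthases and reductases, HPGDS stood out. HPGDS, the hematopoietic synthase of prostaglandin D2, was at 1.87 in SUDHL6 against 4.79 in HT, at least 1.97-fold higher in HT. The HT value exceeded its dim level of 4.11 and the SUDHL6 value was far below its own. With the SUDHL6 value raised to its dim level the difference was -0.98, just under the threshold. Of the 13 genes measured in this list, 8 reached the dim level and 7 of these stayed under the threshold, with a median of -0.09. HPGDS was thus the 1 gene counted, beside 8.12% of all genes.

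The phospholipase and re-esterification lists each held 1 gene that differed, in both cases higher in HT, beside 4.62% of all genes. PAFAH1B2, a catalytic subunit of an enzyme that inactivates platelet-activating factor, stood at 7.38 in SUDHL6 against 8.74 in HT, 2.56-fold higher in HT. LPCAT3, an acyltransferase that places arachidonic acid back into phospholipids, was at 7.005 in SUDHL6 against 8.37 in HT, 2.57-fold higher in HT. Of 20 other phospholipase A2 genes measured, 12 reached the dim level, and the median was -0.02. Of 10 re-esterification and activation genes, 6 reached it, and the median was -0.12.

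**Figure D5:**
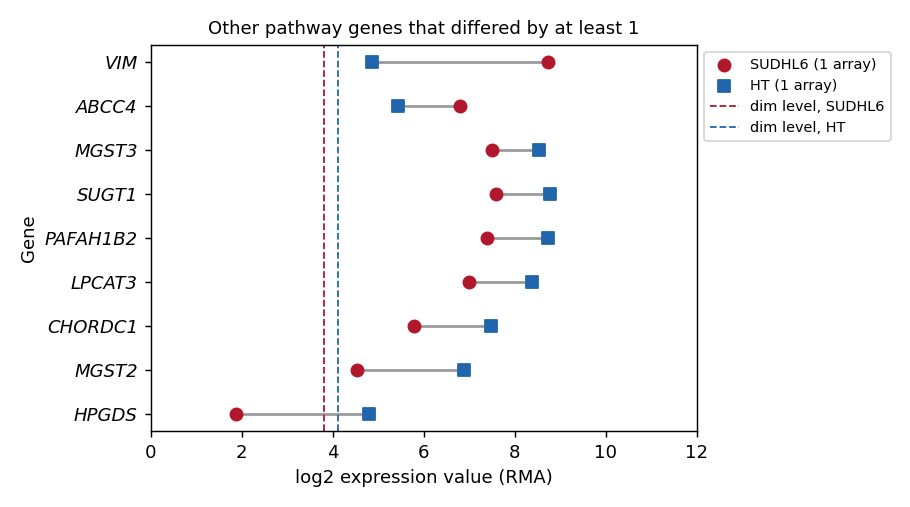
Log2 expression values (horizontal axis) of the 9 further pathway genes counted as different (vertical axis), with 1 point for the SUDHL6 array and 1 for the HT array, and dashed lines at the dim levels. VIM and ABCC4 are higher in SUDHL6, and the other 7 are higher in HT, from MGST3 (7.50 in SUDHL6, 8.53 in HT) to HPGDS (1.87 in SUDHL6, 4.79 in HT).

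Other lipoxygenases and the receptors gave 0 genes counted as different, beside 8.12% of all genes and 12.3% of those bright enough to be counted. Of the 5 other lipoxygenases, 2 reached the dim level. Few genes of these lists could be counted, so the 0 is not read as a result about them. ALOX15B and ALOX12, lipoxygenases that oxidise arachidonic acid at other positions, did not pass the threshold. ALOX15B stood at 4.36 in SUDHL6 against 4.47 in HT, and ALOX12 at 4.32 in SUDHL6 against 3.76 in HT. The list of leukotriene and related receptors had 4 genes with a value, all below the dim level in both lines, and both leukotriene B4 receptor genes, LTB4R and LTB4R2, had no value of their own. CYSLTR1, a receptor of cysteinyl leukotrienes, was at 2.08 in SUDHL6 against 2.39 in HT, and FPR2, a lipoxin receptor, at 2.30 in SUDHL6 against 2.41 in HT. Of 9 prostanoid receptor genes, 4 reached the dim level, with a median of 0.19. PTGDR2, a receptor of prostaglandin D2, was at 4.76 in SUDHL6 against 5.27 in HT, and PTGER1, a receptor of prostaglandin E2, was at 4.77 in SUDHL6 against 4.68 in HT.

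Transporters and protein partners of the pathway held 1 difference each, both toward SUDHL6, beside 3.50% of all genes. ABCC4, which exports prostaglandins, stood at 6.79 in SUDHL6 against 5.43 in HT, a difference of 1.36, and the other 4 of the 5 transporters above the dim level were under the threshold. VIM, an intermediate filament protein that binds the cytosolic phospholipase, was at 8.72 in SUDHL6 against 4.86 in HT, 14.5-fold higher in SUDHL6. The other 6 of the 7 ALOX5 and phospholipase partners over the dim level stayed under the threshold, and the median of that list was -0.30. It was -0.17 after loess. COTL1, which binds and stabilises 5-lipoxygenase, was chosen after its values were seen and stood at 5.98 in SUDHL6 against 6.61 in HT. A probe set naming COTL1 together with RBM7, left out of the counts, went the other way, at 5.93 in SUDHL6 against 5.02 in HT.

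PTGES3, known as p23, is both a prostaglandin E synthase and a co-chaperone of HSP90, and the other members of that chaperone group were read in its place. Of 17 with a value, 16 reached the dim level, 2 were higher in HT and 0 were higher in SUDHL6, with a median of -0.25. Over all genes, 4.62% were higher in HT and 3.50% in SUDHL6, with a median of -0.04. The share among genes bright enough to be counted was 12.3% in either direction. The chaperone median shrank to -0.17 after loess, beside 0.002 over all genes. It was also -0.17 after quantile normalization, beside -0.001 over all genes. A probe set that names the co-chaperone gene FKBP5 together with LOC285847, left out of these counts, differed by 3.10 toward SUDHL6. CHORDC1, an HSP90 co-chaperone, was at 5.78 in SUDHL6 against 7.49 in HT, 3.27-fold higher in HT. SUGT1, a partner of CHORDC1 in that complex, was at 7.59 in SUDHL6 against 8.77 in HT, 2.26-fold higher in HT. A probe set naming CHORDC1 together with LPIN2 and CHORDC1P4, also left out, was at 4.90 in SUDHL6 against 4.85 in HT.

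Markers of other cells that make eicosanoids were read beside these values. All 11 B cell markers with a value reached the dim level in at least 1 line, with MS4A1 (CD20) at 11.33 in SUDHL6 against 8.75 in HT. BANK1 was higher in SUDHL6 by at least 4.28-fold and CD72 by at least 3.49-fold. A probe set naming CD72 together with TESK1, left out of the counts, differed by only 0.38, at 6.55 in SUDHL6 against 6.17 in HT. MS4A1, BANK1 and CD72 were the 3 of these 11 counted as different, beside 3.50% of all genes higher in SUDHL6. Among genes bright enough to be counted, as all 11 were, 12.3% differed in either direction. The other 8 stayed under the threshold. Differences of the 11 were positive for 7 and negative for 4, PAX5 (-0.63) and BLNK (-0.57) among the latter. Of 14 myeloid markers, 4 reached the dim level and 0 were counted as different, beside 8.12% of all genes. Their median difference was 0.03. CD68 stood at 5.53 in SUDHL6 against 5.95 in HT, and ELANE at 4.84 in SUDHL6 against 5.23 in HT. TYROBP and CEBPE also reached the dim level, while the other 10, CD14, LYZ, MPO and CSF1R among them, did not. Their part in the ALOX5 difference was not tested. Of 5 platelet markers, 4 reached it and 0 differed. Of 7 mast cell and basophil markers, 3 reached it, and KIT, CPA3, HDC and CMA1 were dim in both lines, while ENPP3 was at least 5.43-fold higher in SUDHL6 and FCER1A 2.10-fold higher in HT. Of 11 T cell, 7 NK cell and 7 epithelial markers, 3 in each list reached the dim level and 0 were counted as different. KRT8, with the highest mean of the epithelial list, was at 8.27 in SUDHL6 against 8.12 in HT. Of 10 fibroblast and endothelial markers, 5 reached the dim level and 2 were counted, LUM and DCN, both higher in HT. The counts of these lists and of the platelet and mast cell lists stand beside 8.12% of all genes. Both samples are cultures of a lymphoma line, so these markers are not read as shares of cell types. Bulk RNA does not show how a transcript is spread over the cells of a culture.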

How the data were processed

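The authors deposited log2 expression values for 22011 probe sets, made with RMA and Affymetrix Expression Console per the submitters' processing notes. No version, setting or genome build is given in the sources used here. RMA corrects background, makes the arrays' distributions alike and summarises probes, which compresses small differences between dim genes.

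Probe sets were named from GEO's platform annotation, which gave 1 gene for 14432 and several for 2408, while 5171 were not listed. Symbols were updated by gene number to RefSeq (GRCh38.p14), matching 14404 of the 14432. Differences are SUDHL6 minus HT, computed in Python 3.11.15 with pandas 2.3.3, and loess came from statsmodels 0.14.6. The counting rule was run on simulated data with an assumed noise, narrower than the differences of the olfactory receptor genes. It therefore cannot show how often noise passes the threshold in these arrays. Of the 225 olfactory receptor genes, 17 differed by 1 or more before the dim level was applied. Samples were grouped by cell line, 1 array each, so no test was made.

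The genes and lists (the synthesis set, 10 pathway lists and 8 cell type lists) and the thresholds were chosen with earlier results of these data known. The naming rule covered the synthesis genes, nearest genes with a value on each side and the 3 nearest in difference. It also covered list genes counted as different, or the 2 with the highest mean where a list had none. Not every gene under that rule is named. Those left out include the top platelet, T cell and NK cell markers and the nearest genes of PTGES3. OR13A1, MARCHF8 and the other nearest genes fall under that rule, while ZFAND4, ZNF239, PTGES, MGST1 and most single cell type markers were named after their values were seen. Alternatives covered scaling, the dim level, probe set choice and the threshold. Neighbours follow RefSeq gene order, and no gene coordinates are given because the build of the probe sets is not stated.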

Additional observations from a re-analysis of the deposited data

How the results depend on the processing

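Of 10 alternative settings, 0 changed which synthesis genes were counted as different. Each synthesis gene had 1 probe set, so the choice of probe set could not change its value. The dim level and threshold settings could change a call but not a difference. The ranges below therefore come from rescaled values and values raised to the dim level. ALOX5 ranged from 2.05 to 2.12 and ALOX5AP from 0.30 to 0.33. LTA4H ranged from -0.09 to 0.03, so it has no settled sign. PLA2G4A was at 0.13 to 0.17 except with values raised to the dim level, where it was -0.30. That value is fixed for any gene below the dim level in both lines, so it says nothing about the sign of PLA2G4A. The other values lay inside the range of the olfactory receptor genes, so no line is called higher. With values raised to the dim level, the median of the synthesis genes was -0.19 and that of the pathway lists -0.30, which is simply the gap between the dim levels. With probe sets naming several genes included, the synthesis median was 0.13 and LTC4S entered at 0.24, below the dim level. At a threshold of 1.5, the pathway lists held 1 gene higher in SUDHL6 and 3 in HT, against 1.93% and 2.003% of all genes. At 0.5 these were 6 and 20 genes, against 8.66% and 12.9%. After quantile normalization, 576 genes overall were higher in SUDHL6 and 568 in HT, in place of 498 and 657. No paired analysis was possible because each line has 1 array. For the same reason no array could be left out. The signal of PLA2G4A, PTGS1 and PTGS2, at or below that of olfactory receptor genes, limits what can be said of them.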

Other observations

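Probe sets that name several genes gave further values for the chaperone group of PTGES3, all looked up after the main values were seen. FKBP5, an immunophilin co-chaperone of HSP90, shared a probe set with LOC285847 that stood at 9.23 in SUDHL6 against 6.13 in HT, 8.57-fold higher in SUDHL6. The main cytosolic chaperone gene HSP90AB1, shared with HSP90AB3P, was at 12.16 in SUDHL6 against 11.82 in HT. HSP90B1, the chaperone of the endoplasmic reticulum, had 2 such probe sets that went opposite ways, with differences of -1.33 and 0.57. Which of the named genes each of these values reflects was not tested.

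PTGER3, a prostaglandin E2 receptor gene, stood at 1.89 in SUDHL6 against 3.55 in HT, a difference of -1.66 between values that were both below the dim level. It would be counted as higher in HT only with no filter on dim values.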
